A study of Mus musculus with 7 samples.

Results

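Of the 22365 mouse genes with protein-coding transcripts, the 7 urea cycle genes Nags, Cps1, Slc25a15, Otc, Ass1, Asl and Arg1 were examined for chromatin accessibility in liver. They were taken by name, and every hotspot that overlapped a gene body or the 20 kb on either side of it was collected. Hotspots are stretches where nuclease cleavage tags cluster above background. The 7 windows held 70 of the 72286 DNase I hotspots, 81 of the 60910 Benzonase hotspots and 84 of the 57675 Cyanase hotspots, which merged into 103 of 94491 regions.

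The livers came from male C57BL/6 mice aged 8 weeks. Benzonase and Cyanase, endonucleases that stay active in detergent, were applied to pulverized frozen tissue, with 1 library labelled 0.25 U, 1 labelled 1 U and 1 labelled 4 U for each enzyme. DNase I was applied to nuclei purified from fresh tissue. The labels give 1 DNase I sample, and the header of its list names more than 1 library. The tags of each nuclease were pooled before hotspots were called, and the lists give only where each hotspot begins and ends. The depth behind a hotspot is therefore unknown, no spread between replicates can be given, and no test was made. The nuclease and the tissue preparation differ together, so their parts in a difference between DNase I and the other lists cannot be told apart.

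The urea cycle converts ammonia from amino acid breakdown into urea, and the complete cycle runs in hepatocytes, chiefly those around the portal vein. Its first steps take place in mitochondria and the later ones in the cytosol, so that ornithine and citrulline must cross the inner mitochondrial membrane in every turn. Genes of the cycle are induced together by glucagon and glucocorticoids, and loss of any of them in humans causes hyperammonaemia or argininaemia.

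The lists were first compared with marker genes of liver cell types. A start site of a protein-coding transcript lay inside a hotspot of all 3 lists for 5 of 5 hepatocyte markers. For 4 Kupffer cell markers the counts were 3 with DNase I, 0 with Benzonase and 1 with Cyanase. Of 4 stellate cell markers, 0, 3 and 4 were found in the same order, and of 5 genes of other tissues 0, 0 and 1. Endothelial and bile duct markers gave 0 to 2 of 4 per list. What part other liver cells had in the hotspots at the urea cycle genes was not tested.

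All 7 urea cycle genes had a start site inside a hotspot of each nuclease. Over all genes this held for 47.4% with DNase I, 57.4% with Benzonase and 55.7% with Cyanase, and 10303 of the 22365 genes had it in all 3 lists. The accessible start sites nevertheless differed in base composition. In the 200 bases before the main start site (the one shared by most transcripts of the gene), taken at 6 of the genes, the GC content was 42% at Otc, 45.5% at Arg1, 54% at Asl, 61% at Nags, 63% at Slc25a15 and 75% at Ass1. The number of CpG dinucleotides in the same stretches was 1 at Otc, 3 at Arg1, 4 at Asl, 11 at Slc25a15, 12 at Nags and 19 at Ass1. Sequences from both ends of this range, read from mm9 on the gene's strand and ending next to the start site, are given here because each lay inside hotspots of all 3 nucleases. Capitals mark matches to the motifs searched on both strands (GGGCGG here).
Otc, chrX:9829231-9829430, plus strand: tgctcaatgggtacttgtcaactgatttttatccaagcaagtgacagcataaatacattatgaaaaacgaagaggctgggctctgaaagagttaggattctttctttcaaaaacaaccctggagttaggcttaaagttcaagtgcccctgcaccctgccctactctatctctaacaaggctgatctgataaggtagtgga
Ass1, chr2:31325527-31325726, plus strand: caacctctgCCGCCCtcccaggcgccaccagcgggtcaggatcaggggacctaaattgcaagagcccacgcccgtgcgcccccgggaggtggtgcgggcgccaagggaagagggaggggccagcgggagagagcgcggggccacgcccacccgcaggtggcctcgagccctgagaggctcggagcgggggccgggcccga
Slc25a15, chr8:23509094-23509293, minus strand: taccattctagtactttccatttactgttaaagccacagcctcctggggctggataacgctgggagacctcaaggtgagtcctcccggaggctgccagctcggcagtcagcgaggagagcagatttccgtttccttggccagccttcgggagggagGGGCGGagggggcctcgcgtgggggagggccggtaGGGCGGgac

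The letters GGGCGG, which the factor SP1 recognizes, were found in these 200 bases at 5 of the 6 genes (Ass1, Asl, Arg1, Nags and Slc25a15) and at 40.1% of all genes. Shares of all genes for the 200 bases include genes without a hotspot at the start site. The share among start sites inside hotspots was not computed for this length. The whole merged region at the start site is a far longer stretch, with a median of 1282 bp over all genes and 1608.5 bp at these 6 genes. The lengths were not matched. GGGCGG was found there at the same 5 of these 6 genes and in 85.6% of such regions of all genes. CCAAT was found at the same 5 genes and in 74.2% of the regions. At Slc25a15 the 2 GGGCGG matches lay from -44 to -39 and from -9 to -4. CCAAT (30.4% of all genes), TATAAA (9.95%), TTGCNNAA of the C/EBP family (6.87%), TGTTTAC of the FOXA family (2.07%), CAAAGTCCA of HNF4 (0.349%) and TGACGTCA of CREB (1.90%) were in none of the 6 stretches, which says only that these letters are not there. In the whole start site regions TATAAA was found at Arg1 and Slc25a15 (28.1% of such regions of all genes). TTGCNNAA was found there at Otc and Slc25a15 (35.1%) and CAAAGTCCA at Arg1 (2.05%). TGTTTAC (12.5%) and TGACGTCA (5.03%) were in none of these regions of the 6 genes.

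At Cps1, Otc and Arg1 the widths of the hotspots at the start sites followed the same order of nucleases. At Cps1, carbamoyl phosphate synthetase, the enzyme that fixes ammonia in the mitochondrion, the hotspot was 876 bp wide with DNase I, 809 bp with Benzonase and 789 bp with Cyanase, and it reached 515, 465 and 456 bp upstream. At Otc, ornithine transcarbamylase, which joins carbamoyl phosphate to ornithine, the widths were 730, 670 and 623 bp in the same order. At Arg1, the arginase that releases urea, they were 1048, 978 and 908 bp. In these 3 genes the DNase I hotspot was the widest and the Cyanase hotspot the narrowest, and the upstream bounds lay within 66 bp of each other. The downstream bounds lay within 28 bp at Cps1, 42 bp at Otc and 119 bp at Arg1.

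The other start sites did not follow this order of widths. At Ass1, argininosuccinate synthase, the DNase I hotspot was 1784 bp wide and reached 1354 bp upstream of the start, whereas the Benzonase and Cyanase hotspots were both 1547 bp wide and reached 961 and 983 bp upstream but further downstream, 585 and 563 bp against 429 bp. At Asl, argininosuccinate lyase, the widths were 1081 bp with DNase I, 1269 bp with Benzonase and 1216 bp with Cyanase. The bounds there lay within 114 bp of each other upstream and 82 bp downstream. At Slc25a15, the carrier that exchanges ornithine and citrulline across the inner mitochondrial membrane, they were 1764, 1898 and 1334 bp, and the Cyanase list held a separate hotspot of 508 bp from -1031 to -524 that the other lists joined to the start site. At Nags, the synthase that makes N-acetylglutamate, the activator of Cps1, the widths were 973, 2722 and 2114 bp. The Benzonase hotspot at Nags ran from 572 bp upstream to 2149 bp downstream of the start and covered exons 1 to 4, where DNase I gave 3 separate hotspots, of 973, 866 and 454 bp.

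The median width at the 7 start sites was 1048 bp with DNase I, 1269 bp with Benzonase and 1216 bp with Cyanase, against 843, 1230 and 1139 bp over all main start sites in a hotspot. Where both lists held the main start site of a gene, the Benzonase hotspot was the wider one at 3 of the 7 urea cycle genes (Asl, Nags and Slc25a15) and at 88.0% of 9720 genes. The Cyanase hotspot was wider than that of DNase I at 2 of the 7 (Asl and Nags) and at 82.3% of 9666 genes. With 7 genes and pooled lists this contrast is a description of these start sites.

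**Figure D1:**
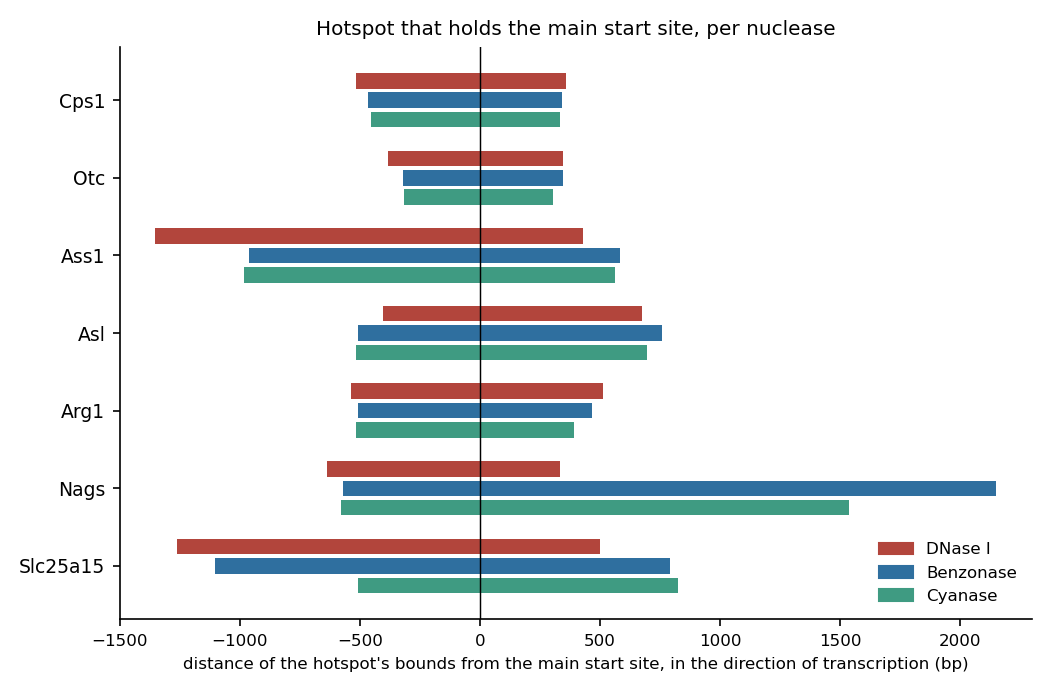
Bounds of the hotspot that holds the main start site of each urea cycle gene, in bp from the start site (line at 0, transcription to the right), with 1 bar per nuclease. The DNase I bar is the longest and the Cyanase bar the shortest at Cps1, Otc and Arg1. At Nags the Benzonase and Cyanase bars reach 2149 and 1536 bp downstream against 334 bp for DNase I.

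To see which parts of the loci each nuclease reached, hotspots of the 3 lists that overlapped by at least 1 bp were merged. Of the 103 merged regions, 53 were common, that is found with DNase I and with Benzonase, Cyanase or both (51.5%, 95% Wilson interval 41.9 to 60.9), and 46 of these held hotspots of all 3 nucleases. Another 14 were DNase I unique (13.6%, 8.27 to 21.5), and 36 were Benzonase-Cyanase unique, found with either or both of these enzymes and not with DNase I (35.0%, 26.4 to 44.6). Over all 94491 regions the shares were 45.4% common, 28.3% DNase I unique and 26.3% Benzonase-Cyanase unique. The intervals cover counting error only, and regions of 1 locus are neighbours rather than independent draws. Ass1 alone held 22 of the 36 Benzonase-Cyanase unique regions. Without it 38 of the remaining 65 regions were common (58.5%), 13 DNase I unique and 14 Benzonase-Cyanase unique (21.5%, 13.3 to 33.0). The last share then lay below that over all regions and near that in the windows of all genes.

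The genes fell apart by class. Cps1 had 6 common, 1 DNase I unique and 9 Benzonase-Cyanase unique regions. Ass1 had 15, 1 and 22 in this order, and Asl 11, 0 and 4. The opposite balance was seen at Otc, with 2 common, 4 DNase I unique and 1 Benzonase-Cyanase unique regions. Slc25a15 had 7, 4 and 0, Arg1 9, 2 and 0, and Nags 3, 2 and 0. Thus all but 1 of the Benzonase-Cyanase unique regions were at Cps1, Ass1 and Asl, and these genes held 2 of the 14 DNase I unique regions.

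**Figure D2:**
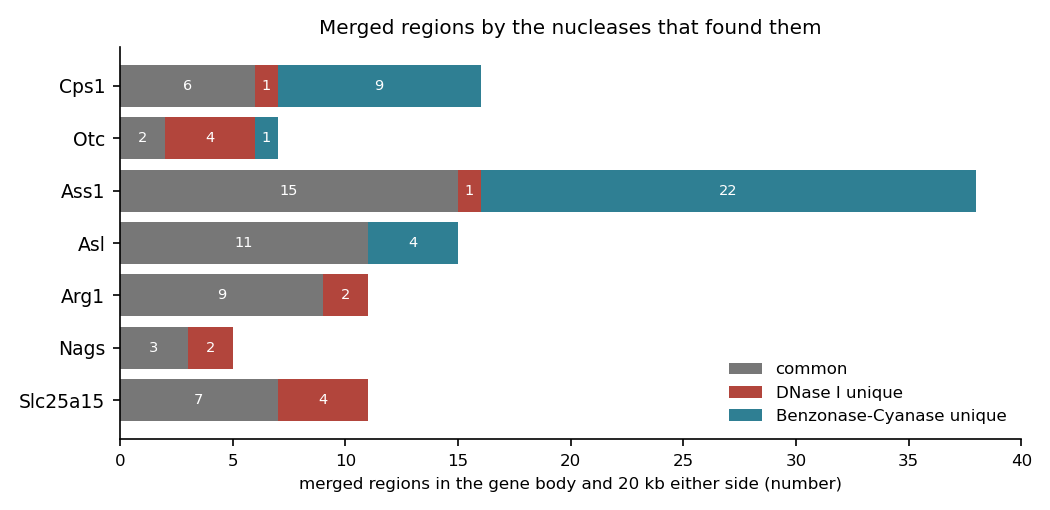
Number of merged regions in the gene body and the 20 kb either side of it for each of the 7 genes, divided by the nucleases that found them. Ass1 has 38 regions, 22 of them Benzonase-Cyanase unique, and Arg1, Nags and Slc25a15 have 0 of that class.

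The classes also differed by position within these loci. Shares over all genes were not computed for start site, upstream or downstream regions, so those counts only describe the 7 windows. The 7 regions at the main start sites were all common. Of 25 other regions upstream of the start site, 21 were common, 2 DNase I unique and 2 Benzonase-Cyanase unique. Of 58 regions in the gene bodies, 17 were common, 8 DNase I unique and 33 Benzonase-Cyanase unique (56.9%, Wilson interval 44.1 to 68.8). With the start sites counted in, the share was 33 of 65 (50.8%, 38.9 to 62.5), against 24.0% in the bodies of all genes counted the same way. Of the 33 regions, 22 were in Ass1 and 8 in Cps1. Without Ass1 the share was 11 of 36 (30.6%, 18.0 to 46.9), and without both genes it was 3 of 25, with an interval of 4.17% to 30.0% that holds the value for all genes. Of 13 regions downstream of the genes, 8 were common, 4 DNase I unique and 1 Benzonase-Cyanase unique. Neighbouring genes share some of these windows, and 85 of the 103 regions did not touch the promoter or body of another protein-coding gene. All the others were among the upstream regions (at Hmcn2, Crcp and Mrps31) or the downstream ones (at Gusb, Med23, Tmem101 and Lsm12). The upstream and downstream counts therefore include regions that may belong to neighbours.

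**Figure D3:**
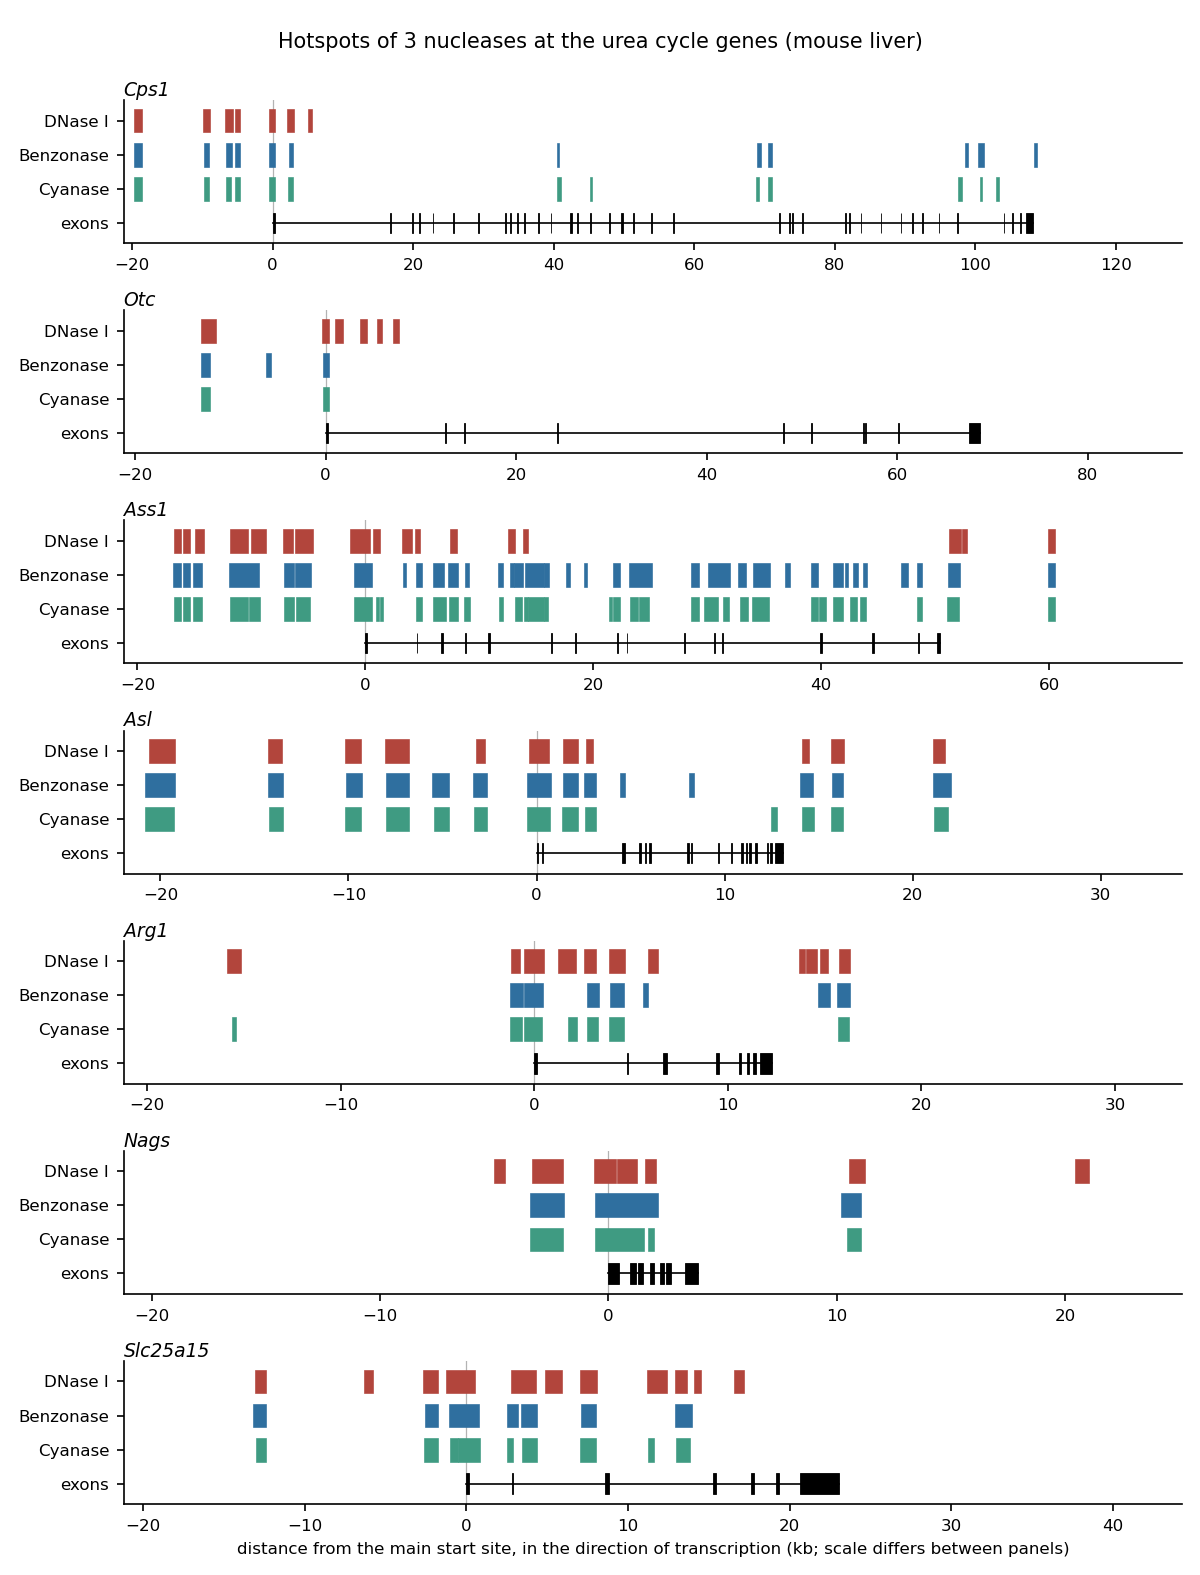
Hotspots of DNase I, Benzonase and Cyanase (boxes, to scale) and exons of the main transcript (black) at the 7 urea cycle genes, in kb from the main start site with transcription to the right and a scale of its own in each panel. Hotspots of the 3 nucleases overlap at every start site, whereas the far parts of the Cps1 and Ass1 bodies carry Benzonase and Cyanase hotspots only and the first intron of Otc, past the start site, carries DNase I hotspots only.

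Ass1 (ENSMUSG00000076441.4, chr2:31325727-31376192, plus strand, 16 exons) had the highest Benzonase and Cyanase coverage of the 7 genes. Hotspots covered 16.3% of its window with DNase I, 31.8% with Benzonase and 30.1% with Cyanase, against medians over all genes of 2.98%, 3.22% and 2.90%. Upstream of the gene 6 regions from -16879 to -4614 were found with all 3 nucleases, 4 of them overlapping the 3′ part of the neighbouring gene Hmcn2. Inside the gene the lists parted. The last DNase I hotspot in the body ended 14318 bp from the start, and the remaining 36147 bp held 18 regions, 11 of them with both Benzonase and Cyanase, 5 with Benzonase alone and 2 with Cyanase alone. Past the gene end DNase I hotspots returned, in a region common to all 3 nucleases from 51038 to 52232 bp from the start.

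The 22 Benzonase-Cyanase unique regions in the Ass1 body were 270 to 2315 bp wide. Of these, 6 overlapped an exon and the others lay within introns. Hotspots touched 2 of the 16 Ass1 exons with DNase I (exons 1 and 2), 8 with Benzonase and 8 with Cyanase. As many Benzonase-Cyanase unique regions in the body, or more, were found in 4 of the 22365 genes (0.0179%), Ass1 included. The others, named after their values were seen, were Gm20388 (93 such regions in 4434882 bp), Fgfr2 (40 in 3009069 bp as annotated) and Dmd (24 in 2257272 bp), each annotated over a far longer span than the 50466 bp of Ass1.

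The widest Benzonase-Cyanase unique region of the 7 windows lay in Ass1, from 29688 to 32002 bp from the start (chr2:31355415-31357729), with 1 Benzonase hotspot over exons 11 and 12 and 2 Cyanase hotspots, one of them over exon 11. The widest DNase I unique region lay in intron 2 of Slc25a15, from 4865 to 5904 bp from the start (chr8:23503189-23504228). Their central 150 bases, both intronic and written on the plus strand, show how the ends of the classes look in sequence. Capitals mark CpG dinucleotides, of which the first holds 1 and the second 0.
Ass1, chr2:31356497-31356646: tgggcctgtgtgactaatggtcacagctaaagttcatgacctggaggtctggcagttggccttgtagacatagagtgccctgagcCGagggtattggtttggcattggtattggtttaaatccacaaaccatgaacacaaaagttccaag
Slc25a15, chr8:23503634-23503783: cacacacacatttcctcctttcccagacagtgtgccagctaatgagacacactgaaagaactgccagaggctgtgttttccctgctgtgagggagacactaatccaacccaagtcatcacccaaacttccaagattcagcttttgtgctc
The GC content of these centres was 47.3% at Ass1 and 48.7% at Slc25a15, although over the whole regions it was 55.4% and 44.4%, so the centres alone do not show the difference between the regions.

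Cps1 (ENSMUSG00000025991.8, chr1:67169600-67277833, plus strand, 38 exons) had a like arrangement over a longer body. Its 4 upstream regions, the start site and 1 region in intron 1 were found with all 3 nucleases. DNase I then gave 1 further hotspot, of 456 bp, that ended 5549 bp from the start. The other 102684 bp of the body held 8 regions without DNase I, 4 with both Benzonase and Cyanase, 1 with Benzonase alone and 3 with Cyanase alone. These were 325 to 750 bp wide and lay between 40484 and 103346 bp from the start. Of the 8, 2 overlapped an exon, 1 of them the whole of exon 16 and the other only the end of exon 34. Of all genes, 117 (0.523%) had as many Benzonase-Cyanase unique regions in the body, or more. This count is not scaled to gene length, and the Cps1 body is 108234 bp long.

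An enhancer several kilobases upstream of Cps1 and another upstream of Otc are known from the rat genes, where C/EBP factors and, at Otc, HNF4 act. Both mouse loci had an upstream region in which hotspots of all 3 nucleases overlapped. At Cps1 it ran from -6830 to -5698 (chr1:67162770-67163902), with widths of 1133 bp for DNase I, 918 bp for Benzonase and 815 bp for Cyanase. At Otc it ran from -13131 to -11536 (chrX:9816300-9817895), and the DNase I hotspot was 1593 bp wide against 1026 bp for Benzonase and 983 bp for Cyanase. The 3 hotspots at Otc began within 49 bp of each other, and DNase I reached at least 564 bp closer to the gene. The central 200 bases of both regions, chosen after the values were seen, are given on the plus strand with motif matches in capitals.
Cps1, chr1:67163236-67163435: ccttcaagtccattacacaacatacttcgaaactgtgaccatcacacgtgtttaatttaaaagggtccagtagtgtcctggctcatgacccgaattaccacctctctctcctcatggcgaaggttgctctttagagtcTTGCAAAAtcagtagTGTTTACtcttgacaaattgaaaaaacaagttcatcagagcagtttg
Otc, chrX:9816998-9817197: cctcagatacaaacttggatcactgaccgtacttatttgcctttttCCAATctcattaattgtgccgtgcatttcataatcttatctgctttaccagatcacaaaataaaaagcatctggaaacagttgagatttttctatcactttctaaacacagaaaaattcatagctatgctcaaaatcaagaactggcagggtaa
The Cps1 stretch held TTGCNNAA (in 12.9% of the 37764 complete centres of regions found with all 3 nucleases) and TGTTTAC (4.81%), and the Otc stretch held CCAAT (25.7%). CAAAGTCCA (1.51%) was in neither. These matches describe the letters and do not mark a bound factor.

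Otc (ENSMUSG00000031173.7, chrX:9829431-9898150, plus strand, 10 exons) was the least covered of the 7 genes for Benzonase and Cyanase. Its window of 108720 bp held 6 DNase I, 3 Benzonase and 2 Cyanase hotspots, and coverage was 4.51%, 2.04% and 1.48%. Benzonase and Cyanase coverage lay below the medians over all genes, and Otc was the only one of the 7 for which it did. The 4 DNase I unique regions, 796, 700, 506 and 579 bp wide, followed the start site within intron 1, from 1003 to 7657 bp from the start. No hotspot of any list lay in the remaining 61062 bp of the body. A region at -6225 to -5699 was found with Benzonase alone. As many DNase I unique regions in the body, or more, were found in 1047 of all genes (4.68%), a count not scaled to gene length.

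Arg1 (ENSMUSG00000019987.8, chr10:24635014-24647276, minus strand, 8 exons) had 11 DNase I, 7 Benzonase and 7 Cyanase hotspots, which covered 13.3%, 8.70% and 8.06% of its window. Of its 11 regions, 5 held all 3 nucleases. Its body held a chain of regions over the first 6409 bp, of which those at 2586 to 3329 and 3880 to 4673 bp from the start, both in intron 1, were found with all 3 nucleases. A region at 1249 to 2231 bp lacked Benzonase, and in a region in intron 2 at 5639 to 6409 bp, which lacked Cyanase, the DNase I and Benzonase hotspots overlapped by 8 bp. Another region just upstream, from -1263 to -591, was 446 bp wide with DNase I, 656 bp with Benzonase and 640 bp with Cyanase. Its 2 DNase I unique regions lay downstream, in the body of the neighbouring gene Med23.

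Nags (ENSMUSG00000048217.5, chr11:102006827-102010791, plus strand, 7 exons) is the shortest of the 7 genes. Apart from the long region over its start, a region from -3436 to -1966 was found with all 3 nucleases, at 1390 bp with DNase I, 1471 bp with Benzonase and 1420 bp with Cyanase. The bounds of these upstream hotspots lay within 72 bp of each other. At the start site the upstream bounds were also close, at 638, 572 and 577 bp in the same order. The downstream bounds there differed more, at 334, 2149 and 1536 bp. The 200 bases at the centre of the upstream region, from -2801 to -2602, held none of the 7 motifs. DNase I gave further hotspots of 460 bp from -5010 to -4551 and of 620 bp within the neighbouring gene Lsm12 that the other lists lacked. A processed transcript, Gm11586, is annotated on the opposite strand across the Nags start, and hotspots there cannot be assigned to one of them.

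Slc25a15 (ENSMUSG00000031482.8, chr8:23486026-23509093, minus strand, 7 exons) had 7 regions in the body apart from the start site. Of these, 3 were 1040, 624 and 442 bp wide, were DNase I unique and lay in introns 2, 4 and 3. Another 3 were found with all 3 nucleases and 1, from 11164 to 12398 bp from the start, with DNase I at 1235 bp and Cyanase at 360 bp. Coverage of the window was 16.8% with DNase I, 11.3% with Benzonase and 10.7% with Cyanase. DNase I coverage was thus the highest of the 3 here, as it was at Otc, Arg1 and Nags, and the lowest at Cps1, Ass1 and Asl.

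Asl (ENSMUSG00000025533.9, chr5:130487128-130501002, minus strand, 17 exons) had 15 regions, of which 11 were found with all 3 nucleases. Coverage was 16.0%, 21.3% and 19.9% with DNase I, Benzonase and Cyanase. Common regions at 1343 to 2228 and 2531 to 3179 bp followed the start site in intron 2, after which DNase I gave no hotspot in the remaining 10132 bp of the body. There were 3 short regions there. Of these, 2 were found with Benzonase alone, 313 bp over exon 8 and the edge of exon 7, and 274 bp over most of exon 3. The third was found with Cyanase alone, 348 bp over parts of exons 16 and 17. The fourth Benzonase-Cyanase unique region, 908 bp wide, lay at the start of the neighbouring gene Crcp.

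The GC content of the regions differed by class. It was 48.8% ± 6.67 (SD over 53 regions) in common regions, 41.2% ± 5.71 (14 regions) in DNase I unique regions and 51.8% ± 5.57 (36 regions) in Benzonase-Cyanase unique regions. Over all regions the means were 49.5%, 42.3% and 54.7% in the same order. At Cps1, whose window has a GC content of 38.1%, common regions had 38.0% ± 2.87 (6 regions) and Benzonase-Cyanase unique regions 43.2% ± 2.59 (9 regions), and the DNase I unique region had 29.6%. At Otc, with 39.1% in the window, the 4 DNase I unique regions had 37.6% ± 1.25 and the Benzonase region at -6225 had 47.4%. At Ass1, with 52.2% in the window, common and Benzonase-Cyanase unique regions had 54.6% ± 3.06 (15 regions) and 54.7% ± 1.76 (22 regions), with means well within 1 SD of each other. The DNase I unique region of Ass1 had 43.9%. Without Ass1 the median GC content was 46.9% in common and 45.8% in Benzonase-Cyanase unique regions, against 48.7% and 54.1% with Ass1. The order of these classes over the pooled genes thus turned. Of the 14 Benzonase-Cyanase unique regions then left, 9 lay at Cps1, whose window is low in GC. In each gene with both classes the Benzonase-Cyanase unique mean lay above the common mean, though at Ass1 they were nearly equal. At Asl these means were 56.5% (4 regions) and 49.8% (11 regions), and at Otc 47.4% (1 region) and 41.4% (2 regions). In each of the 6 genes with a DNase I unique region, their mean lay below that of the common regions.

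**Figure D4:**
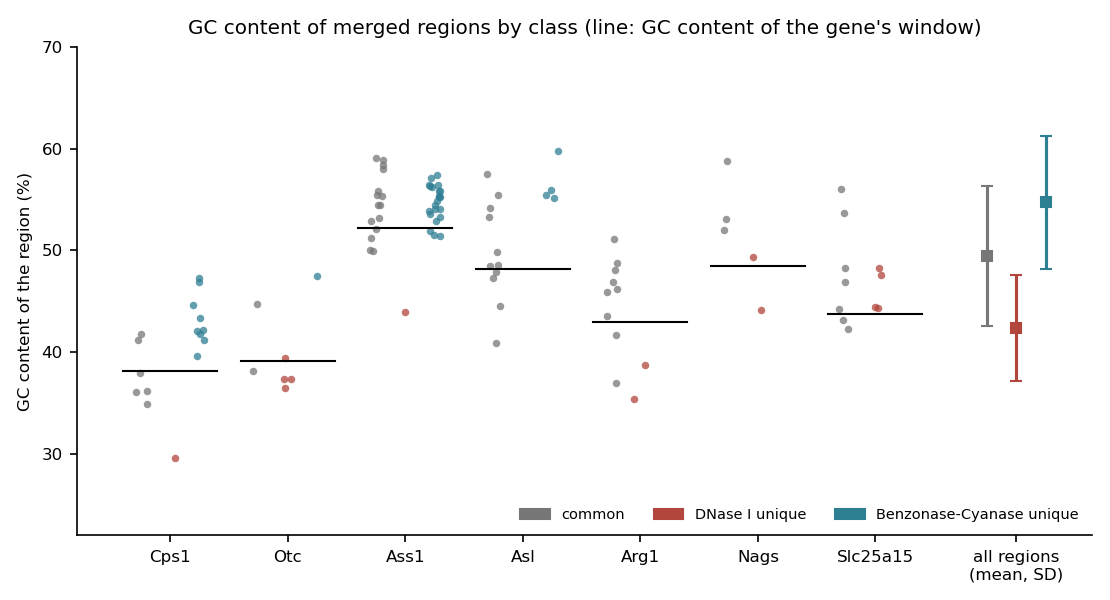
GC content (%) of each merged region at the 7 urea cycle genes by class, with the GC content of the gene's window as a line, and at the right the mean and SD of each class over all 94491 regions. At Cps1, Ass1 and Nags every DNase I unique region lies below the common regions, and at Cps1 the Benzonase-Cyanase unique regions reach 47.3% in a window of 38.1%.

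Exons were touched by part of the body regions only. Of the Benzonase-Cyanase unique regions in the 7 bodies, 11 of 33 overlapped an exon (33.3%, Wilson interval 19.8 to 50.4), against 42.7% in the bodies of all genes. Of the DNase I unique regions none of 8 did, for which the interval reaches 32.4%, against 13.4% over all genes. Of 24 common regions, start sites included, 9 did (37.5%), against 48.7%.

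Where a hotspot of one list overlapped exactly 1 of another, the bounds could be compared pair by pair. The 45 Benzonase and DNase I pairs in the 7 windows differed by a median of 82 bp in the left and 93 bp in the right bound, without regard to sign, and Benzonase was the wider in 21 and DNase I in 23. Cyanase and DNase I pairs (48) differed by medians of 77.5 and 56 bp, and the DNase I hotspot was the wider in 29. The Cyanase and Benzonase pairs (60) lay closer, with medians of 33.5 and 29 bp, and Benzonase was the wider in 34. The corresponding medians over the whole lists were 75 and 74 bp, 72 and 72 bp, and 36 and 36 bp. The largest gaps in width from DNase I were at Ass1 and Slc25a15. In intron 5 of Ass1 a Benzonase hotspot of 1666 bp matched a DNase I hotspot of 446 bp, and in intron 3 of Slc25a15 the DNase I hotspot of 1235 bp matched 360 bp with Cyanase. The median width of all hotspots in the windows was 731.5 bp for DNase I, 686 bp for Benzonase and 638 bp for Cyanase, against 649, 652 and 641 bp in the whole lists.

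**Figure D5:**
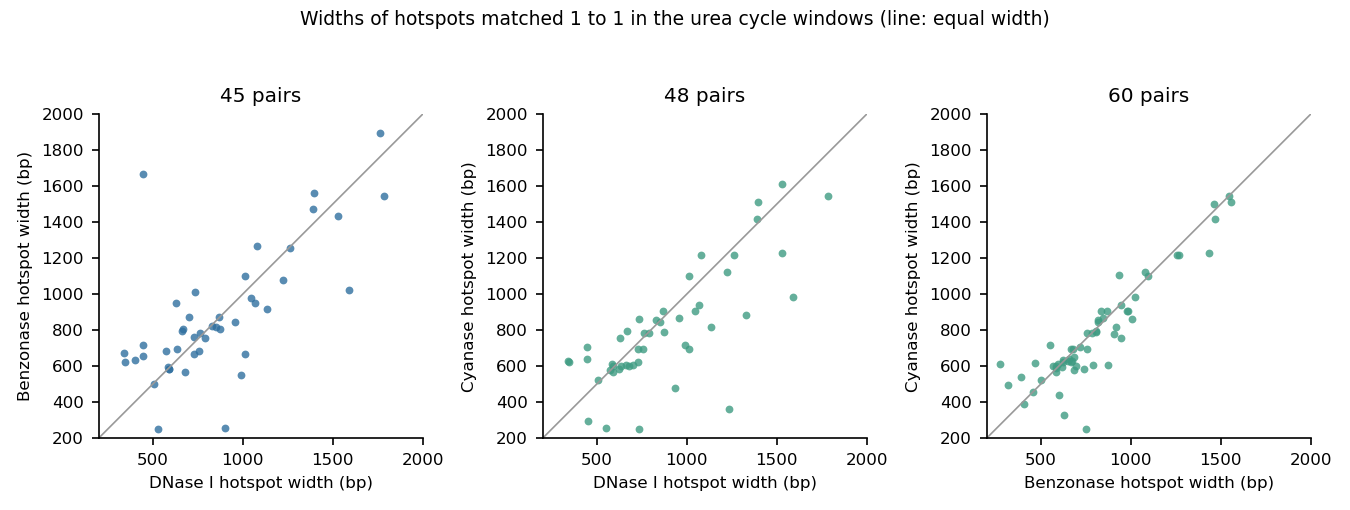
Widths (bp) of hotspots matched 1 to 1 between pairs of lists in the windows of the 7 genes, with a line at equal width and 1 point per pair (45, 48 and 60 pairs). Cyanase and Benzonase widths lie closest to the line, and single pairs such as 1666 bp with Benzonase against 446 bp with DNase I lie far from it.

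Paralogs of 2 members gave a contrast. Arg2, the mitochondrial arginase expressed mainly outside hepatocytes, had its start site in a Benzonase hotspot of 616 bp and a Cyanase hotspot of 491 bp and in no DNase I hotspot, whereas the start of Arg1 lay in hotspots of all 3. Slc25a2, another ornithine carrier, had no hotspot of any list at its start, where Slc25a15 had one in each. A hotspot marks accessible chromatin and does not measure expression, which was not analysed here.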

How the data were processed

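Per the labels and the study's methods, the authors aligned tags to mm9, pooled them by nuclease and kept hotspots with a false discovery rate (FDR) of 0%. The methods also name a threshold on tag density, and the paper reports fewer hotspots for each nuclease than the lists used here hold. Each of the 3 deposited lists, described as input adjusted and unmerged, gives 3 columns, a chromosome and a pair of bounds. The lists were read as BED files and printed positions count from 1, and a header line that repeats a start unchanged leaves 1 bp of doubt. In the Cyanase list 2 hotspots end past their chromosome. There were 0 columns of other samples.

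The 7 genes, the 9 linked genes, the cell markers and the motifs were chosen with earlier results of these data known. All 7 are described. Other genes are named where they lie in a window, where they share the highest counts with Ass1, or in the lists of linked genes. Annotation was GENCODE M1 on NCBIM37, the assembly of mm9, without the mitochondrial genome. The main start site was the one with the most transcripts of the gene starting within 100 bp. Hotspots overlapping by 1 bp were merged, which gave 94491 regions, as did bedtools 2.31.1. Merging and overlap were tested on simulated intervals. Motifs in the 200 bases before start sites were set against 22360 genes with complete sequence. For 1 of the 7 genes this stretch is not reported here. Intervals are 95% Wilson intervals for counting error only. Depth was not given in the lists, and since tags were pooled no test was made. Python 3.11.15, numpy 2.4.6, scipy 1.17.1 and pyfaidx 0.9.0.4 were used. Alternatives were other flanks, overlap rules, joining distances, start site rules and equal list sizes, and leaving out Ass1 or Ass1 and Cps1, which was added after seeing the data.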

Additional observations from a re-analysis of the deposited data

How the results depend on the processing

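Of 63 alternative values for 24 results, 58 stayed within 1.5 times a count or within the counting interval of a share or median, and none changed sign. With overlaps of 50% of both hotspots required, the common share fell to 37.6%, where all regions gave 37.2%. Without Ass1 the Benzonase-Cyanase unique share was 21.5% and the median GC content of that class 45.8%, below the 46.9% of common regions, against 54.1% and 48.7% with Ass1. Within each gene that held both classes, the mean of the Benzonase-Cyanase unique regions lay above that of the common regions, at Ass1 only slightly. In regions found with all 3 nucleases the median hotspot width was 829 bp for DNase I, 809 bp for Benzonase and 785 bp for Cyanase, the same order as in all regions of the windows. The common share lay below that of all regions with flanks of 5 kb, at 42.7%, and with the widest 57675 hotspots of each list, at 45.8% against 47.5%. In those lists of equal size the DNase I unique share was 10.4% against 20.4% over all regions, and the Benzonase-Cyanase unique share 43.8% against 32.1%. No paired analysis was possible because the tags of each nuclease were pooled before hotspots were called and no result came from a test. For the same reason no library could be left out. Depth is unknown, so the absence of a hotspot from a list does not show closed chromatin.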

Other observations

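The windows of 9 linked genes of nitrogen metabolism (Glul, Gls2, Glud1, Slc25a13, Slc25a2, Oat, Arg2, Slc7a2 and Car5a) held 76 DNase I, 57 Benzonase and 57 Cyanase hotspots in 77 merged regions. Of these, 52 were common (67.5%), 19 DNase I unique (24.7%) and 6 Benzonase-Cyanase unique (7.79%). In the windows of all genes these shares were 49.7%, 26.2% and 24.1%. No linked gene had more than 2 regions of the last class. Start sites lay in a hotspot at 7 of the 9 genes with DNase I and at 8 with Benzonase and with Cyanase, against 47.4%, 57.4% and 55.7% of all genes.

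At Glul, glutamine synthetase, which takes up ammonia in hepatocytes around the central vein, the hotspot at the main start was 988 bp wide with DNase I, 2542 bp with Benzonase and 2485 bp with Cyanase. At Oat, ornithine aminotransferase, the widths were 680, 1325 and 1353 bp. At Slc25a13, the aspartate and glutamate carrier of liver mitochondria, they were 1538, 1560 and 1566 bp. Benzonase gave the wider hotspot than DNase I at all 7 linked genes with both, at 3 of the 7 urea cycle genes and at 88.0% of all genes with both. The widths come from pooled lists and the difference was not tested.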
